A study of Mus musculus with 2 samples.

Results

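The genes described here are 9 protein-coding genes of the TH1 programme, *Tbx21*, *Ifng*, *Stat4*, *Il12rb1*, *Il12rb2*, *Eomes*, *Hlx*, *Il22* and *Prf1*, read for binding of Gata3 in TH2 cells. They were chosen by name, with earlier results of these data known, out of 21938 protein-coding genes in the GENCODE M21 annotation, and each was taken as its gene body with 50 kb on either side, called its domain. *Il12rb1* was not analysed here, which leaves 8 genes. The data are 2 Gata3 ChIP-seq libraries of 1 condition, mouse TH2 cells from spleen that had been expanded in culture, numbered in the labels as replicates 1 and 2. The labels give no genotype, age or second condition, and their extraction protocol names ILC2 where the other fields name TH2 cells. No groups could therefore be compared, no control chromatin was analysed, and ChIP reads hold no transcript levels against which the cell type label could be checked. Library 1 held 40526613 reads and library 2 held 24970952 reads, which put on average 2.97 and 1.83 reads in a window of 200 bp.

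TH1 cells respond to intracellular infection. IL-12 signals through a receptor of the Il12rb1 and Il12rb2 chains to Stat4, the T-box factor T-bet (encoded by *Tbx21*) sets up the programme together with Eomes and the homeobox factor Hlx, and interferon-γ, the product of *Ifng*, is its main cytokine. *Il22* encodes an epithelial cytokine of the IL-10 family that is made by several lymphocyte types, and *Prf1* encodes perforin, the pore-forming protein of cytotoxic granules. Gata3 is the lineage factor of TH2 cells. It binds DNA at GATA sequences and is known both to activate the TH2 cytokine genes and to restrain genes of the opposing fate. A ChIP-seq peak is taken to mark where the factor was on the DNA, and does not tell whether the gene nearby was active or silent. Without control chromatin, the peaks here were not checked against enrichment that does not depend on Gata3.

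The sequences under the peaks on which the results turn are given first, on the plus strand of GRCm38. Capitals mark the GATA words searched for on either strand, namely the word AGATAA, the word AGATAG, the word TGATAA and the word TGATAG. A word on the minus strand is printed as its reverse complement. The tallest peak of the set, upstream of *Il22*, the tallest peaks of *Ifng* and *Eomes*, the tallest peak of *Hlx* in library 1 and the tallest peak within *Stat4* hold such a word close to the summit. In library 2 another peak of *Hlx*, without a GATA word, was the tallest.
Il22, upstream peak, chr10:118172680-118172740: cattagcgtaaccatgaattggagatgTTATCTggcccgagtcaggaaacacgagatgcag
Ifng, downstream peak, chr10:118481649-118481709: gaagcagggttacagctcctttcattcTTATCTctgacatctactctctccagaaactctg
Ifng, second downstream peak, chr10:118477805-118477865: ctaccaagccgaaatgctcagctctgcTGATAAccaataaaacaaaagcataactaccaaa
Stat4, intron 4 peak at +69.1 kb, chr1:52056123-52056183: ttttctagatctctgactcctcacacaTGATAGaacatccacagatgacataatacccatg
Eomes, upstream peak, chr9:118451085-118451145: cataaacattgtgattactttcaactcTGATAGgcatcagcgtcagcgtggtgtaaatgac
Hlx, downstream peak, chr1:184689179-184689239: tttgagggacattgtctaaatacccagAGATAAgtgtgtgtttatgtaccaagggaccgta

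*Tbx21* is shown at its tallest peak, far upstream, which has no GATA word in the 201 bases centred on the summit.
Tbx21, upstream peak, chr11:97159200-97159400: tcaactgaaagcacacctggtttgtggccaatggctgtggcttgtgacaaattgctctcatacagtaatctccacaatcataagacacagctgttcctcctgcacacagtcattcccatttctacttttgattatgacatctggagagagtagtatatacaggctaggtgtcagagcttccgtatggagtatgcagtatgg

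The peak before the start of *Il22* is shown as the only shared peak of the set within 2 kb of the start of its own gene. Its capitals mark a GATA word and, near the right end, the AP-1 word TGACTCA.
Il22, peak at the start, chr10:118204300-118204500: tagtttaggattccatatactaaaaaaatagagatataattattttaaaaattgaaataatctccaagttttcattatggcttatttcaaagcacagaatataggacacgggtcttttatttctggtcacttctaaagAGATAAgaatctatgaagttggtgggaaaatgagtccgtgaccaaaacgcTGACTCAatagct

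The last stretch, in intron 2 of *Stat4*, shows a run of GATA words in a simple repeat.
Stat4, intron 2 peak, chr1:52001634-52001694: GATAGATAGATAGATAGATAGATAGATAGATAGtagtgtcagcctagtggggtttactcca

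Gata3 peaks were found around 7 of the 8 genes. A peak was called where a 200-bp window held more reads than its surroundings (one-sided exact Poisson test with the mean of the library or of the surrounding 5 kb or 10 kb, whichever was highest, as background, Benjamini-Hochberg q of 0.01 over all windows of the genome with a read), and is called shared where the peaks of both libraries overlapped. Of 23806 shared peaks in the genome, 39 lay in the 8 domains, with 8 at *Stat4*, 7 at *Tbx21*, 7 at *Il12rb2*, 5 at *Ifng*, 5 at *Eomes*, 4 at *Il22*, 3 at *Hlx* and 0 at *Prf1*. A shared peak in the domain is common, and 71.2% of all protein-coding genes had 1 or more. That background includes 1111 genes without a read in the gene body, and without them it was 74.5%. The medians and percentiles of all genes given below include these genes as well. Gene bodies held 9 of the 39 peaks (23.1%), close to the 24% that the bodies make up of the length of the domains. They were at 3 genes, *Stat4*, *Il12rb2* and *Tbx21*, where the background was 29.4% of genes, or 31% without the genes lacking reads. Within 2 kb of the gene start there was a shared peak at 1 gene, *Il22*, where the background was 11.7%, or 12.4% without those genes. With library 1 alone, the deeper of the pair, 73 of 71726 peaks lay in the domains. There 3 genes had a peak at the start. With library 2 alone, 44 of 28204 peaks lay in the domains and 1 gene had a peak at the start. The backgrounds above are for shared peaks, and the share of all genes was not taken for 1 library alone. By gene, library 1 alone gave 19 peaks at *Il12rb2*, 16 at *Stat4*, 10 at *Tbx21*, 8 at *Ifng*, 8 at *Eomes*, 5 at *Il22*, 4 at *Hlx* and 3 at *Prf1*. At a q of 1e-10, 4 shared peaks were left at *Tbx21*, 3 at *Stat4*, 1 each at *Ifng*, *Eomes* and *Il22*, and 0 at *Il12rb2*, *Hlx* and *Prf1*. With a minimum of 5-fold over the background, 5 were left at *Stat4*, 4 at *Tbx21*, 3 at *Il22*, 1 each at *Ifng*, *Il12rb2* and *Eomes*, and 0 at *Hlx* and *Prf1*. Windows of 100 bp lowered the count by over 1.5 times at *Ifng* (2), *Il22* (2) and *Hlx* (1), and leaving out the 1 kb around a window from its background raised it to 12 at *Il12rb2*. Positions given for shared peaks are the summits of library 1, and the reads of each library are those at its own summit, which can be a different window.

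**Figure D1:**
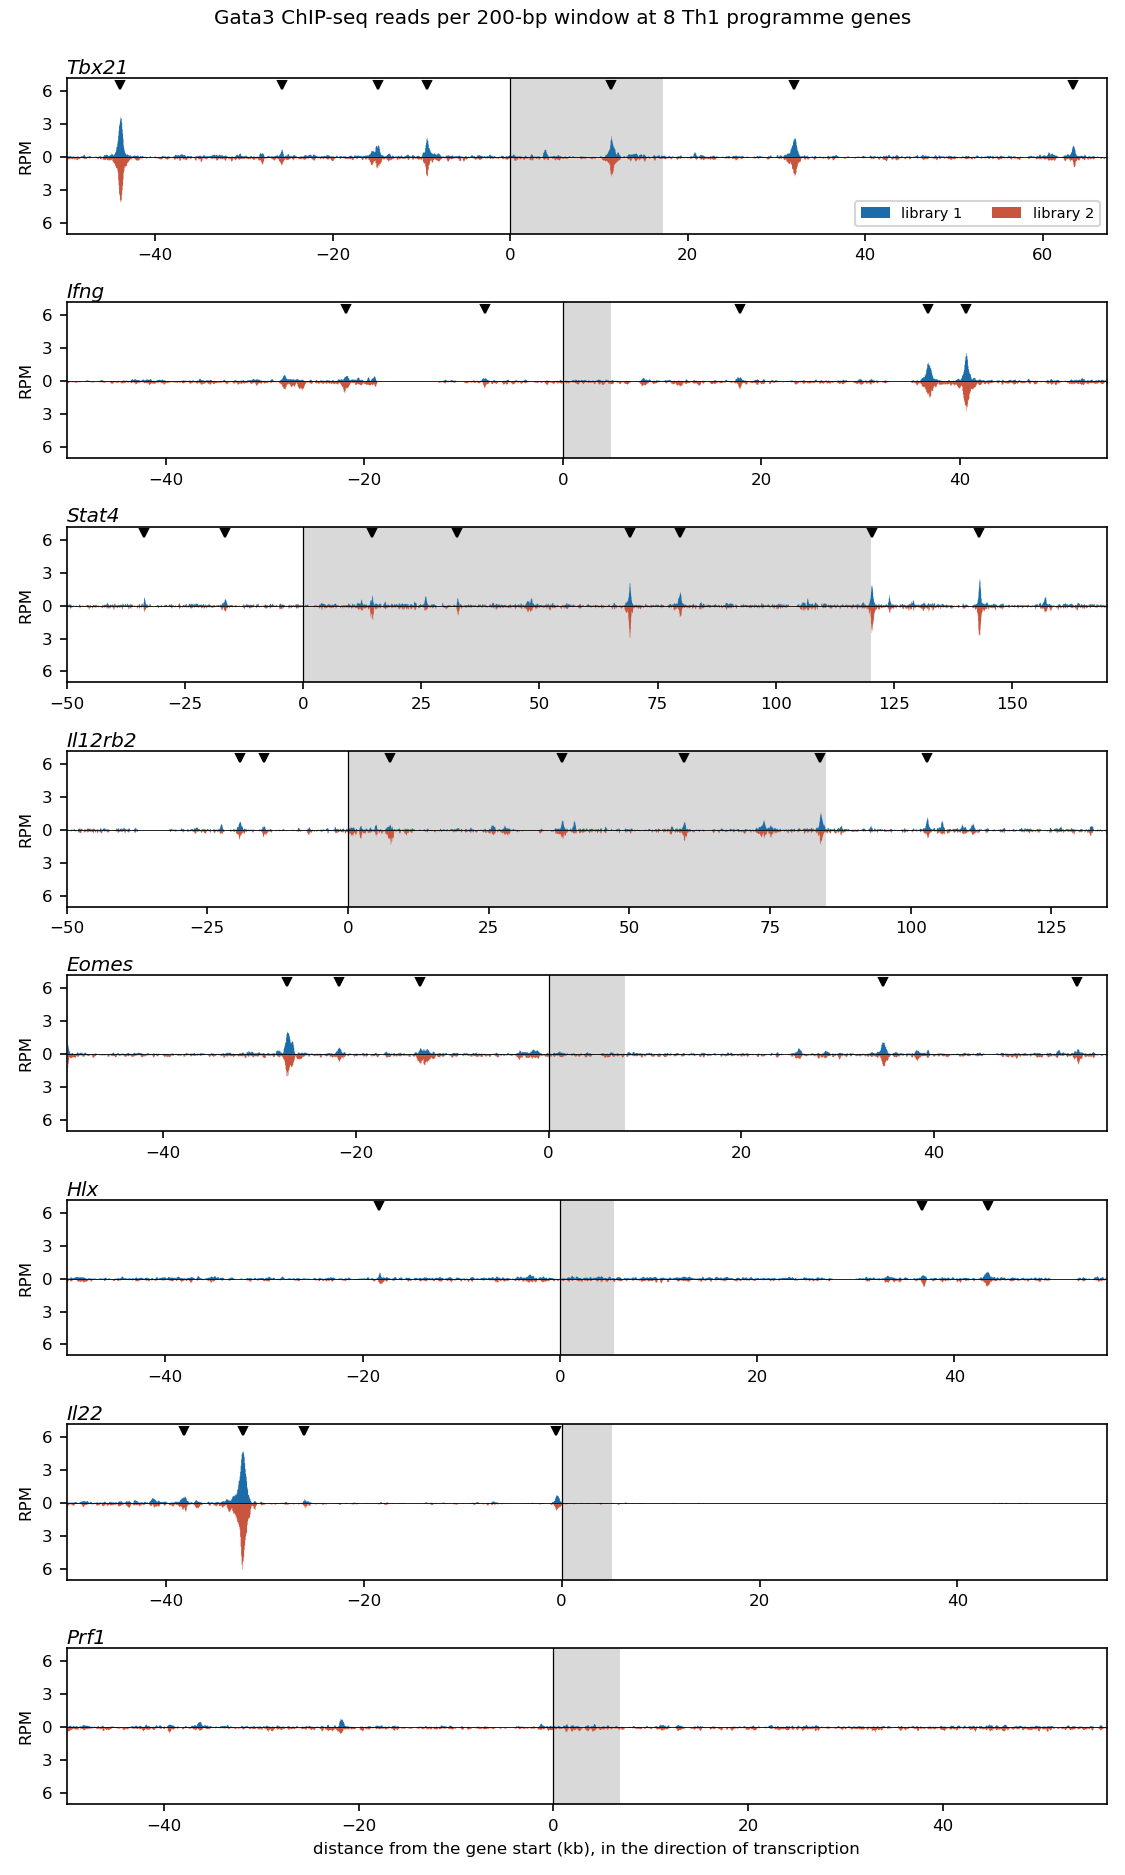
Reads per 200-bp window in RPM (reads scaled to the depth of the library, y axis) against the distance from the gene start in kb (x axis), with library 1 in blue upwards and library 2 in red downwards. Grey shading is the gene body and triangles are the 39 shared peaks. The tallest lies 32.2 kb upstream of *Il22*, and *Prf1* has no triangle.

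The transcription factor *Tbx21* had peaks on both sides of the gene and within it. It spans 97098071 to 97115331 on the minus strand of chromosome 11, and its 7 shared summits stood at −44.0, −25.8, −14.9, −9.4, +11.4, +32 and +63.4 kb from its start, in the direction of transcription. The summit at −44.0 kb held 148 reads in library 1 (95% exact counting interval 125 to 174) and 102 reads in library 2 (83.2 to 124). These are 3.65 and 4.09 RPM (reads scaled to the depth of each library), 6.49-fold and 5.99-fold over the local background, and put it at the 98.5 percentile of all shared peaks ranked by the lower library. The start of *Tbkbp1*, which encodes a TBK1-binding protein, is nearer to it than that of *Tbx21*, and the summit stood at −7805 bp from it. A further 3 sites were of nearly equal height to each other. The summit at −9.4 kb held 72 and 43 reads in libraries 1 and 2. The summit in intron 1, at +11.4 kb, held 78 and 43 reads. The summit past the gene end, at +32 kb, held 71 and 43 reads. All these sites were at the 86.4 percentile, and their counting intervals overlapped in both libraries. The remaining summits were lower, between 29 and 45 reads in library 1 and between 18 and 25 in library 2. The one at −25.8 kb lay inside *Tbkbp1*, 10395 bp from its start, which was the nearest. The one at +63.4 kb lay inside *Osbpl7*, 1272 bp from the start of that oxysterol-binding protein gene. Within 2 kb of the *Tbx21* start no window held more than 11 reads in library 1 or 8 in library 2, and no peak was called in either library.

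*Eomes*, the T-box factor related to T-bet, had its shared peaks outside the gene body. It spans 118478212 to 118486132 on the plus strand of chromosome 9. The tallest of its 5 shared summits, at −27.1 kb, held 85 reads in library 1 and 49 in library 2, or 2.10 and 1.96 RPM, at the 89.7 percentile. The other summits upstream, at −21.8 and −13.3 kb, held 27 and 25 reads in library 1 and 16 and 24 in library 2. Downstream, the summits at +34.6 and +54.8 kb lay inside the neighbour *Golga4*, a Golgi-associated golgin gene, with 46 and 21 reads in library 1 and 26 and 22 in library 2. A peak at −1.7 kb, within the window around the start, was called in library 1 with 20 reads, 2.70-fold over its background, but not in library 2, which had 6 reads there. *Hlx* (184727140 to 184732619, minus strand of chromosome 1) had the lowest maximum of the 7 genes with a shared peak, although the lowest single peaks were at *Ifng* in library 1 (14 reads) and at *Il22* in library 2 (11 reads). Its 3 shared summits held 24, 15 and 28 reads in library 1 and 12, 18 and 17 in library 2, at −18.3, +36.8 and +43.4 kb, and all were under the median height of shared peaks.

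**Figure D2:**
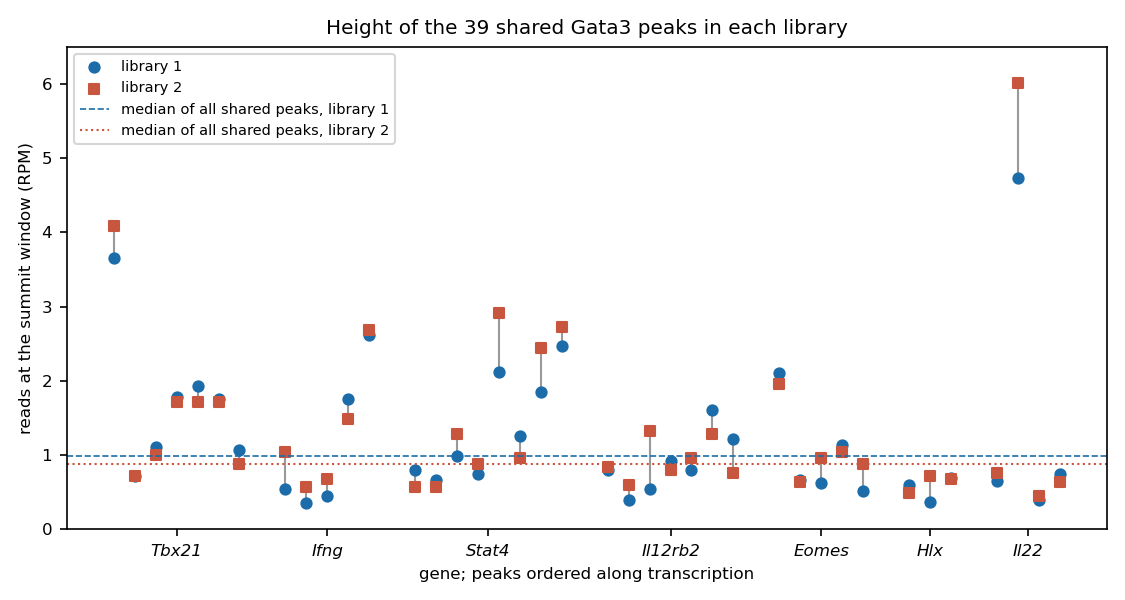
Reads at the summit window in RPM (y axis) for each of the 39 shared peaks, grouped by gene, in library 1 (blue circles) and library 2 (red squares). The dashed and dotted lines are the medians over all shared peaks, 0.988 RPM and 0.881 RPM. Grey lines join the libraries, and *Prf1* has no shared peak to show.

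The signalling genes of IL-12, *Stat4* and *Il12rb2*, held 8 of the 9 peaks that lay in a gene body, and made up 81.2% of the summed body length of the 8 genes. *Stat4* spans 51987148 to 52107189 on the plus strand of chromosome 1. Its tallest summit within the gene, in intron 4 at +69.1 kb, held 86 reads in library 1 and 73 in library 2, or 2.12 and 2.92 RPM. The unadjusted exact binomial p for the difference between the libraries there was 0.0498, and 0.283 after adjustment over all shared peaks. A summit just past the gene end, at +120 kb, held 75 and 61 reads. The other summits in the gene were in intron 2 (40 and 32 reads), intron 4 at +32.7 kb (30 and 22 reads) and intron 5 (51 and 24 reads). Upstream of the start, at −33.5 and −16.6 kb, the summits held 32 and 27 reads in library 1 and 14 each in library 2. Around the start itself the read density was 0.965 of the library mean, at the 20.4 percentile of all genes. Of the 8 summits, 5 were above the median height of all shared peaks.

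*Il12rb2*, which encodes the signalling chain of the IL-12 receptor, spans 67291318 to 67376188 on the minus strand of chromosome 6. It had as many shared peaks as *Tbx21*, but lower ones, and 1 of the 7 was above the median height. That summit, in exon 16 at +83.9 kb, held 65 and 32 reads in libraries 1 and 2 and lies where *Il12rb2* and its neighbour *Serbp1*, an RNA-binding protein gene, overlap. The intron 7 summit held 37 and 20 reads, and lay 1594 bp from the start of a shorter annotated transcript of the gene. The intron 8 summit held 32 and 24 reads. In intron 1, a summit at +7.5 kb held 22 reads in library 1 and 33 in library 2, or 0.543 and 1.32 RPM. Upstream, the summits at −19.2 and −14.9 kb held 32 and 16 reads in library 1 and 21 and 15 in library 2. The summit at +103 kb, beyond the gene, held 49 and 19 reads. A further 12 peaks were called in library 1 alone, more than at any of the other 7 genes, and 1 in library 2 alone. Over the genome, 23806 of the 71726 peaks of library 1 were shared, so that most were not. The domain of *Il12rb2*, 184871 bp, was also longer than all but that of *Stat4*. A q of 1e-10 left 0 shared peaks.

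*Ifng* had no peak in its body or at its start, and its taller peaks lay far downstream. It spans 118441046 to 118445892 on the plus strand of chromosome 10. The summit at +40.6 kb held 106 reads in library 1 (86.8 to 128) and 67 in library 2 (51.9 to 85.1), or 2.62 and 2.68 RPM, at the 95 percentile. A second summit nearby, at +36.8 kb, held 71 and 37 reads, at the 82.1 percentile. The 3 others were low. At −21.8 kb there were 22 and 26 reads, at −7.8 kb 14 and 14 reads, and at +17.9 kb 18 and 17 reads. With library 1 thinned to the reads of library 2, the count of shared peaks at the gene was 2. Around the start no window exceeded 9 reads in library 1 or 8 in library 2. The body had a read density 1.52 times the library mean, at the 64.2 percentile of genes.

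*Il22* had the tallest peak of the set and the only shared peak within 2 kb of the start of its own gene. It spans 118204942 to 118210047 on the plus strand of chromosome 10. The summit at −32.2 kb held 192 reads in library 1 (166 to 221) and 150 in library 2 (127 to 176), or 4.74 and 6.01 RPM, at the 99.8 percentile of shared peaks. It was 5.61-fold and 5.62-fold over the local background, which includes its own reads. The start of *Mdm1*, a microtubule-binding protein gene, was at 30939 bp from it and thus slightly nearer than that of *Il22*. The summit 542 bp before the start of *Il22* held 30 reads in library 1 (20.2 to 42.8) and 16 in library 2 (9.15 to 26.0), 8.82-fold and 7.55-fold over a low background. At a q of 1e-10 it was no longer shared. The summits at −38.1 and −26.0 kb held 26 and 16 reads in library 1 and 19 and 11 in library 2. From the start onwards almost no reads were seen, with 13 in each library over the gene body, 0.223 of the library mean. Only 54.9% of 50-base stretches in the domain, and 70.4% in the body, occur once in the genome, against 91.4% to 96.9% in the domains of the other genes, and a related copy of the gene, *Iltifb*, lies on the same chromosome. Per uniquely placed position the density of the domain was 1.66 times the library mean, compared with 1.09 per base, whereas that of the body was 0.264, compared with 0.223 per base, and so stayed low. The part of near copies, whose reads may have no unique position, was not tested.

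*Prf1* (61297833 to 61304680, plus strand of chromosome 10) had 0 shared peaks in its domain. Its highest window, at −21.9 kb, held 34 reads in library 1, 5.28-fold over the background (exact Poisson q of 1.1e-11), and 14 reads in library 2, 3.30-fold (exact Poisson q of 0.0286), which missed the threshold of 0.01. Library 1 alone gave 3 peaks, at −36.3, −21.9 and −1.3 kb, and library 2 alone gave 1, at −39.5 kb. With the 1 kb around a window left out of its background, 1 peak was shared. The count of 0 therefore says that no site passed in both libraries at this depth, and does not show that Gata3 is absent.

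**Figure D3:**
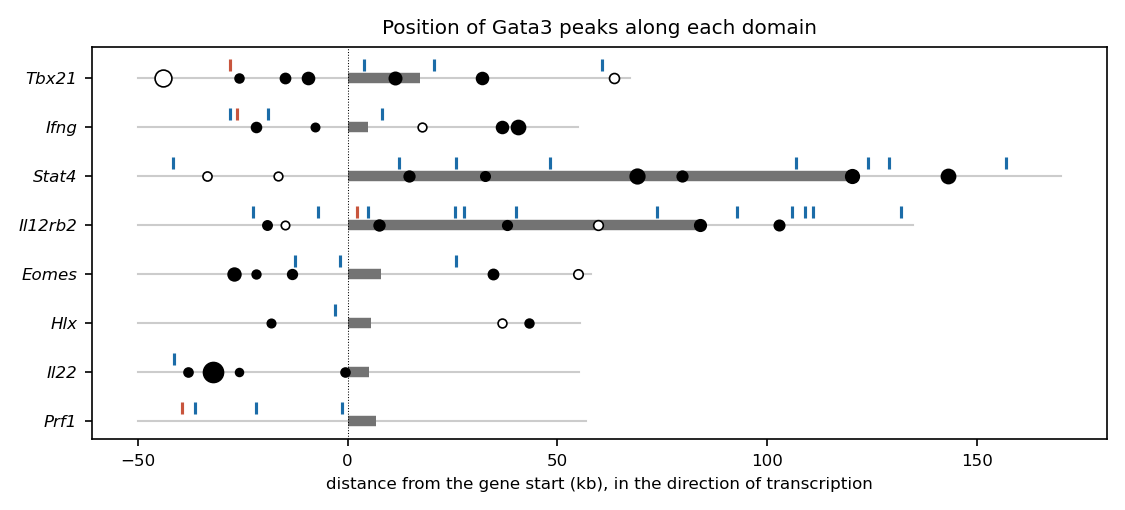
Position of peaks along each domain, with the distance from the gene start in kb (x axis) and a row for each gene. The thick grey bar is the gene body, circles are shared peaks (filled where a GATA word lies within 100 bp of the summit, area growing with RPM), and ticks above are peaks called in 1 library alone, blue for library 1 and red for library 2. Of the 39 circles, 9 lie in a gene body and 1 lies within 2 kb of the gene start at 0 kb.

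The 39 peaks were of ordinary height for this experiment. Of these, 17 were above the median height of all shared peaks and 3 were at or above the 95 percentile, at *Tbx21*, *Ifng* and *Il22*, and their median percentile was 48.2. The nearest protein-coding start was that of the gene itself for 26 peaks and of a neighbour for 13. Peaks within 2 kb of any protein-coding start made up 5.13% of the 39, compared with 10.0% of all shared peaks. The height of a peak joins the share of cells in which the site was bound and how often it was bound in each, which cannot be told apart in bulk chromatin.

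Measured over the whole domain, *Tbx21* was the most densely read of the 8 genes and *Il22* the least, although per uniquely placed position *Hlx* (1.17 times the library mean) was the least. The read density over the library mean was 2.23 in library 1 and 2.28 in library 2 for *Tbx21*, at the 98.4 percentile of all genes by the mean of both. It was 1.86 and 2.05 for *Stat4*, 1.83 and 1.89 for *Eomes*, 1.59 and 1.94 for *Ifng* and 1.55 and 1.69 for *Il12rb2*. Among these 4, the ranges of the libraries overlapped between neighbours in the order, whereas the range of *Tbx21* lay above that of *Stat4*. Within each library *Stat4* was above *Eomes* and *Ifng* above *Il12rb2*, while *Eomes* and *Ifng* changed places from library 1 to library 2. *Prf1* (1.38 and 1.39), *Hlx* (1.27 and 1.41) and *Il22* (1 and 1.19) stood near or below the median of all genes, 1.35. Per length, the domains held between 2.84 shared peaks per 100 kb (*Hlx*) and 5.97 (*Tbx21*), with 0 at *Prf1*, compared with a median of 0.978 over all genes, and 7 of 8 were above this median. Around the start the 8 genes had 0.965 to 2.29 times the library mean, 4 of them above the median gene (1.52).

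**Figure D4:**
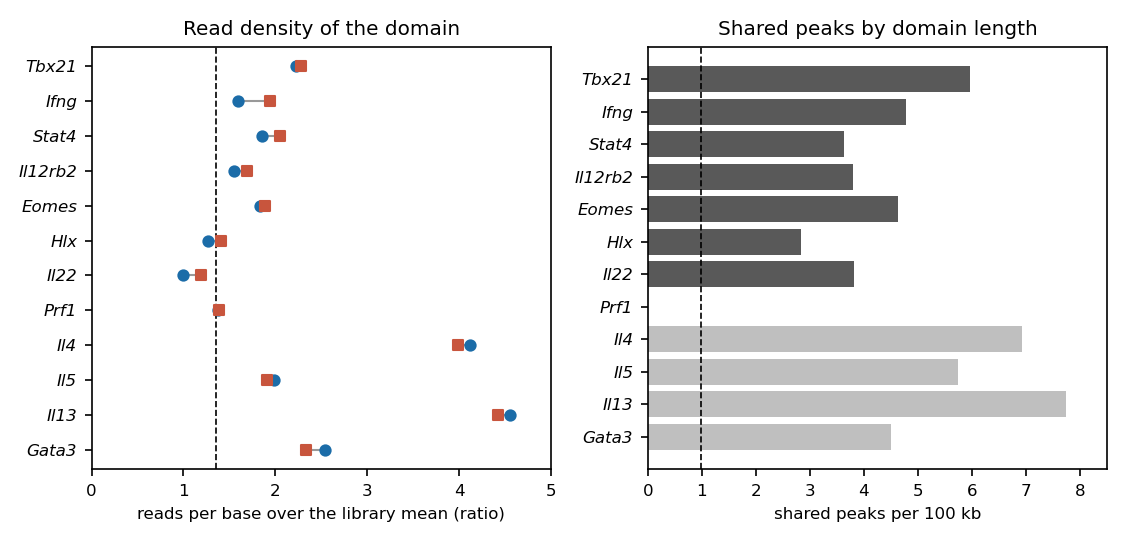
Left, reads per base in the domain over the library mean (ratio, x axis) for the 8 TH1 programme genes and 4 TH2 genes, in library 1 (blue circles) and library 2 (red squares). Right, shared peaks per 100 kb of domain, dark for TH1 programme genes and light for TH2 genes. Dashed lines are the medians of all protein-coding genes, 1.35 and 0.978.

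As the best known targets of Gata3, the TH2 genes give a scale for these values. *Il4* and *Il13*, the cytokine neighbours on chromosome 11, had domain densities of 4.05 and 4.49 times the library mean and shared a tallest peak of 5.43 and 5.53 RPM. *Il5* (1.95) was close to *Stat4* (1.96), and *Gata3* itself (2.44) was slightly above *Tbx21* (2.26). All 3 cytokine genes had a shared peak within 2 kb of the start, while *Gata3* had none. Around the start the density was 22.1 times the library mean at *Il13*, 14.6 at *Il4*, 3.95 at *Il5* and 3.43 at *Gata3*, compared with 0.965 to 2.29 at the 8 genes. The value of *Il22*, 1.35, is for a window of which 68.1% is unique. In height, the upstream peak of *Il22* at 4.74 and 6.01 RPM was lower than the tallest peak of the *Il4* and *Il13* domains in library 1 and higher in library 2, a difference that was not tested.

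No summit of a shared peak differed in height between the libraries past the threshold. The test covered only sites called in both libraries. It left out 34 peaks of these domains called in library 1 alone and 4 called in library 2 alone. At the summits of library 1, 0 of the 39 differed between the libraries (two-sided exact binomial test, q of 0.05), 4 had an unadjusted p under 0.05, and over all shared peaks 1.89% differed. The summits of the libraries were within 100 bp of each other at 31 of the 39 sites, and 450 bp apart at most. Nothing in the labels says whether the libraries came from separate cultures, so that their spread may be technical.

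GATA words were found at 30 of the 39 summits, within 100 bp. This is 76.9% (95% exact interval 60.7 to 88.9) and lies near the 71.1% of all shared peaks, while windows 1 kb to either side of the shared peaks held one in 33.4%. By gene, all 4 summits of *Il22*, 4 of 5 of *Ifng*, 4 of 5 of *Eomes*, 6 of 8 of *Stat4*, 5 of 7 of *Tbx21*, 5 of 7 of *Il12rb2* and 2 of 3 of *Hlx* held a GATA word. At the tallest *Tbx21* summit the nearest word, a TGATAG within the peak, stood at −385 bp on the plus strand. The AP-1 word TGACTCA, or its reverse complement, was within 100 bp of 5 summits (12.8%), compared with 12.4% of all. These summits were at *Tbx21* (−14.9 kb), *Ifng* (+17.9 kb), *Stat4* (−16.6 kb), *Eomes* (+34.6 kb) and *Il22* (542 bp before the start). The RUNX word TGTGGT was at 5 summits (12.8%, compared with 17.1%), and the T-box word GGTGTGA, the sequence type that T-bet itself binds, at 2 (5.13%, compared with 3.15%), in intron 4 of *Stat4* at +32.7 kb and at +34.6 kb of *Eomes*, each beside a GATA word. The STAT word TTCNNNGAA was at 0 of 39, compared with 7.45% of all. In the RefSeq promoter sequences, matched for all 8 genes (GRCm38.p6, 250 bases before to 50 after the start), GATA words were found in those of *Il22* and *Ifng* and at the second start of *Stat4*, and in 29.8% of all 32851 promoters. A word is a match of letters and not a binding site, and a window without a match says nothing about the factor.

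**Figure D5:**
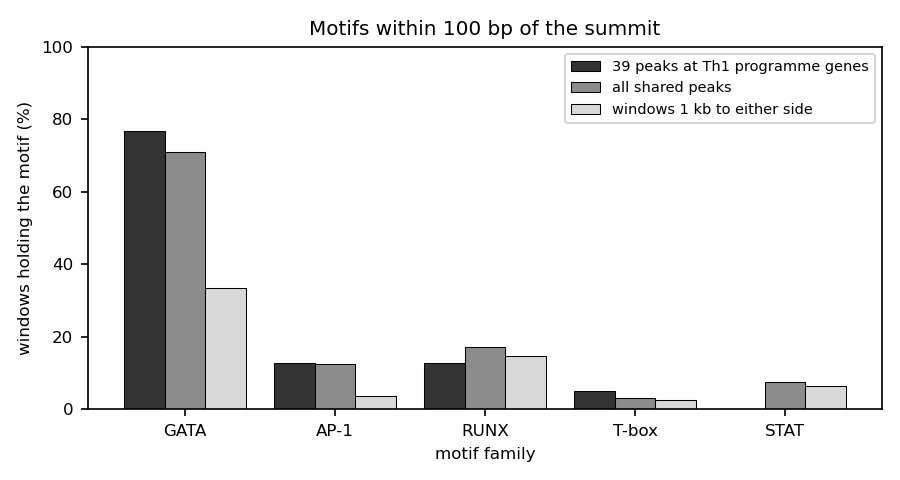
Share of windows that hold each motif (%, y axis) within 100 bp of the summit, for 5 motif families (x axis), in the 39 peaks at TH1 programme genes (dark), all 23806 shared peaks (mid grey) and windows 1 kb to either side (light). GATA words reached 76.9%, 71.1% and 33.4%.

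The wider TH1 pathway was read with a list of 28 further genes, also chosen with earlier results known. Of these, 24 had a shared peak in the domain (85.7%, background 71.2%), 12 in the gene body (42.9%, background 29.4%) and 8 at the start (28.6%, background 11.7%), with a median of 3.28 shared peaks per 100 kb. Without the genes lacking a read in the body, these backgrounds were 74.5%, 31% and 12.4%. The genes with a peak at the start included *Tnf*, *Gzma*, *Fasl*, *Ifngr2*, *Runx3*, *Runx1* and *Havcr2*. *Tnf*, which encodes tumour necrosis factor, had a density at its start 9.49 times the library mean, and *Gzma*, a granule protease gene, 5.03 times. *Ifngr2*, which encodes a chain of the interferon-γ receptor, reached 4.39 times and *Fasl*, the death ligand gene, 3.54 times. *Ccl3*, *Ccl4*, *Hopx* and *Twist1* had 0 shared peaks. Several domains overlap (such as *Il18r1* with *Il18rap*, *Tnf* with *Lta*, *Ccl3* with *Ccl4*), so that a peak can count for more than 1 gene. The genes of the IL-12 receptor kinases had shared peaks in the domain, 8 at *Jak2* and 5 at *Tyk2*.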

How the data were processed

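Chromatin of TH2 cells, as labelled, was immunoprecipitated with an anti-Gata3 antibody and tagmented on beads (ChIPmentation) in 2 libraries of 1 group. Single reads had been mapped to GRCm38 by the authors with Bowtie2 (2.3.5.1), who dropped reads without a unique position, and the submitters' processing notes also name MACS2 (2.1.2). They deposited 1 line per read, with position, strand and a mapping quality score, and 0 reads share a 5′ end and strand, so duplicates had been removed. The deposited score was used as a filter alone.

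Here the 40504814 and 24959052 reads on chromosomes 1 to 19, X and Y were shifted by 100 bp and counted in 200-bp windows every 50 bp. Significant windows within 100 bp were joined, the summit was the window with the most reads, and peaks were shared with an overlap of at least 1 bp. Neighbouring windows overlap, so their tests are not independent. Intervals cover counting error only. RPM are reads scaled to the total on these chromosomes. Fits ran on the whole genome, with Python 3.11.15, NumPy 2.4.6 and SciPy 1.17.1, plots used Matplotlib 3.10.9, and peak calls were tested on simulated data. Uniqueness counted exact matches of 50 bases in the same genome. The named genes were the 9 chosen genes, those with the start nearest to a shared summit, 28 further TH1 genes and 4 TH2 genes, together with *Iltifb*, named for its similarity to *Il22*. The members and lists were chosen with earlier results of these data known. Alternatives were other thresholds, windows, backgrounds, flanks, promoters, motif windows, depths and each library alone. Results for a few of these genes and sites are not reported here.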

Additional observations from a re-analysis of the deposited data

How the results depend on the processing

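Of 150 alternative values, 114 stayed within the tolerance of their measure and 36 moved beyond it. A reversal of direction was not defined for these measures. The tolerance was 1.5 times for a count, the 95% exact interval for the GATA share and 1 SD of the libraries (0.155) for the density, so that these are not alike in strictness. That SD comes from the density values with 1 library alone, 1.57 and 1.79. These alternatives were therefore nearly bound to stay within it. The 39 shared peaks became 25 with 25 kb on either side, 15 with at least 5-fold over the background and 10 at a q of 1e-10, and between 44 and 73 with 1 library alone. A stricter threshold, a narrower domain and fewer libraries alter the count by construction. The count of genes with a shared promoter peak, 1, became 0 at a q of 1e-10 and 2 with the start of any annotated transcript (an alternative added after the data were seen), and was 1 to 3 with 1 library alone. The share of all genes was not taken under the alternatives, so this count and the counts of genes below have no background there. GATA words were at 35.9% of summits with AGATAA only and at 56.4% within 50 bp. The median domain density of the 8 genes, 1.69 times the library mean, was 1.46 with reads in shared peaks left out and 1.57 to 1.79 with 1 library alone. The counts of genes with a shared peak in the domain (7, range 5 to 8) or the gene body (3, range 2 to 3), of list genes (24, range 16 to 28) and of summits differing between the libraries (0) stayed within 1.5 times under each alternative run. With 7 of 8 genes and 24 of 28 list genes already counted, these counts could not rise by 1.5 times. The falls from 3 to 2 and from 24 to 16 lay exactly at the limit of 1.5 times, which was taken as within it. Also added after seeing the data, peaks nearest to the start of their own gene numbered 26, and GATA words were at 75.0% without summits with 9 or more matches. No paired analysis was possible because both libraries form 1 group. Depth limits the low peaks, and with library 1 thinned to the reads of library 2 the shared peaks numbered 31.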

Other observations

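Simple repeats of GATA words stood apart, a pattern noticed after the values were seen. Of the 39 summits, 3 had 9 or more GATA matches within 100 bp, in intron 2 of *Stat4* (14), at −13.3 kb of *Eomes* (13) and in intron 1 of *Il12rb2* (9). All 3 were higher in library 2, with 0.988 and 1.28 RPM at *Stat4*, 0.617 and 0.962 RPM at *Eomes*, and 0.543 and 1.32 RPM at *Il12rb2* in libraries 1 and 2. These RPM are at the own summit of each library, whereas matches were counted around the summit of library 1. At *Eomes* the summit of library 2 stood 450 bp away. In the summit window of library 1, library 1 held 40, 25 and 22 reads at *Stat4*, *Eomes* and *Il12rb2*, and library 2 held 30, 22 and 25, before scaling to depth. Over all shared peaks, 269 had 9 or more matches (1.13%), and 96.7% of them were higher in library 2, with medians of 0.593 and 0.962 RPM. Among the 10742 summits with 1 match, 39.9% were higher in library 2, with medians of 1.01 and 0.881 RPM. Among the 39 summits themselves, 10 of 19 with 1 match and 6 of 9 with 0 matches were also higher in library 2, and of the 269 peaks 3.35% differed between the libraries at a q of 0.05. The libraries are of the same condition, and the source of this difference was not tested.

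Peaks called in 1 library alone added sites near the starts of *Eomes*, *Prf1*, *Hlx* and *Il12rb2*. Library 1 alone had peaks at −1.7 kb of *Eomes* (20 reads), −1.3 kb of *Prf1* (15 reads) and −3.1 kb of *Hlx* (18 reads), where library 2 had 6, 5 and 5 reads. The exact Poisson q of these calls was 0.00969, 0.00825 and 0.00273, where the threshold was 0.01. Library 2 alone had a peak at +2.2 kb of *Il12rb2* with 19 reads, 3.15-fold over the background (exact Poisson q of 0.00547), where library 1 had 17 reads, 2.89-fold. Library 1 also had a peak at +3.9 kb of *Tbx21*, inside the gene, with 29 reads and 5.29-fold over the background (exact Poisson q of 6.5e-10), where library 2 had 4 reads, 1.19-fold.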
